A study of Mus musculus with 9 samples.

Results

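MLE-12 cells that received extracellular vesicles of injured wild-type mice were compared with MLE-12 cells in regular medium. The comparison used 6 of the 9 libraries of the series and all genes with a mean of at least 1 RPKM over these 6, which were 11050 of the 21950 genes measured. RPKM is the number of reads of a gene scaled by its length and by the library total. The bound on the mean left out 10900 genes, of which 98 lay between 0.9 and 1 RPKM, while 114 of the genes kept lay between 1 and 1.1. MLE-12 is a lung epithelial line from tumours of SP-C/TAg transgenic mice, in which the promoter of surfactant protein C drives a viral large T antigen, so every group carries this oncogene and comes from a single line at passage 17. The 3 libraries called wild-type vesicles are of cells treated with vesicles taken by lavage from the lungs of bleomycin-injured wild-type mice. The 3 libraries called control are of the same cells kept in medium without vesicles. The other 3 libraries, with vesicles of bleomycin-injured mice deficient in syndecan-1, entered only the direct difference given near the end and an alternative fit of all 9 libraries. No group had vesicles of uninjured mice. Vesicle dose, duration and carrier are not given in the sources used here, nor is it said whether the 3 samples of a group were separate cultures or vesicle preparations, so the p-values measure only the spread between these samples, which may be technical.

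Extracellular vesicles are membrane-bound particles that cells release and take up, with protein, lipid and RNA as cargo. Cells that sense foreign or misplaced nucleic acid make type I interferon, which acts through JAK kinases and factors that include STAT2 and IRF9 to switch on antiviral genes. The balance between growth and quiescence in epithelial cells runs through D-type cyclins, MYC and ribosome production on the growth side, and through FOXO and TFEB factors, which favour stress resistance and lysosomes, on the other.

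Library totals recovered from the steps of the RPKM values were between 24353257 and 26338900 reads with wild-type vesicles and between 25024077 and 33558660 in control. On log2(RPKM + 1) the first principal component held 92.8% of the variance and placed wild-type vesicles at 30.7, 32.1 and 26.7 and control at -29.5, -29.9 and -30.1. Wild-type replicate 3 stood apart on the second component, which held 4.83%, at -13.7 against 4.72 and 7.92 for replicates 1 and 2. Mitochondrially encoded genes held 12.9 to 14.9% of summed RPKM with wild-type vesicles and 8.22 to 8.64% in control, and cytosolic ribosomal protein genes 9.47 to 9.81% and 12.6 to 13.2%.

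The epithelial label was checked on 6 marker genes. Krt8, a simple epithelial keratin, stood at 174, 175 and 187 RPKM with wild-type vesicles and at 335, 333 and 342 in control, and Nkx2-1, the lung lineage factor, at 33.1, 34.7 and 34.7 against 24.8, 24.7 and 22.4. Sftpc, which encodes surfactant protein C, held 15.3 to 17.9 RPKM with wild-type vesicles and 8.36 to 9.23 in control. The pan-epithelial gene Epcam was listed at 0 in all 6 libraries, the E-cadherin gene Cdh1 lay at 0.137 to 0.189 with wild-type vesicles against 1.34 to 1.40 in control, and Krt18 was under 1 RPKM throughout, so the label rests on the lung lineage genes and Krt8. Markers of macrophages, neutrophils and lymphocytes summed to 4.69 to 5.52, 1.21 to 1.53 and 0.0803 to 0.217 RPKM with wild-type vesicles and to 5.27 to 5.38, 0.996 to 1.35 and 0.0934 to 0.160 in control, with Marco, Adgre1, Ly6g and S100a9 listed at 0. Endothelial and erythroid markers summed to 32.4 to 33.2 and 0.599 to 0.741 RPKM with wild-type vesicles, against 26.7 to 27.8 and 1.02 to 2.94 in control, and airway markers to 307 to 323 against 295 to 322. Ramp2 alone made 27.6 to 29.4 of the endothelial sum with wild-type vesicles and 24.4 to 25.7 in control. Of its stretches of 50 bases 30.7% are found in another annotated gene too. Tek had 1.85 to 1.98 RPKM against 0.619 to 0.858 and Egfl7 1.05 to 2.02 against 0.588 to 0.978. The endothelial genes Pecam1, Cdh5, Kdr, Cldn5, Emcn, Vwf and Plvap were under 1 RPKM throughout. Within the airway list Cbr2 had 70.6 to 83.2 RPKM with wild-type vesicles against 6.63 to 9.49 in control and Foxj1 1.03 to 1.30 against 0.152 to 0.216, while Tubb4b had 212 to 218 against 259 to 284, Muc5b 16.9 to 20.9 against 25.2 to 26.4 and Trp63 0.547 to 0.592 against 2.23 to 2.31. The 11 fibroblast markers summed to 751 to 893 RPKM with wild-type vesicles and 272 to 281 in control, of which the proteoglycan gene Dcn alone made 698 to 843 and 192 to 200. Of the other fibroblast markers Pdgfra had 4.79 to 5.48 RPKM with wild-type vesicles and 1.08 to 1.14 in control, Lum 0.218 to 0.348 against 0, and Col1a1 44.8 to 47.8 against 78.9 to 79.8. Col3a1 lay at 0 to 0.004 RPKM, Tcf21 and Inmt were listed at 0, and Pdgfrb, Postn, Col1a2 and Thy1 were under 1 RPKM throughout. The part of other cell types in the results was not tested. In these bulk libraries fewer cells of a kind and less RNA per cell cannot be told apart.

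Most expressed genes differed between cells with wild-type vesicles and control cells, and most differences were small. limma, a linear model with a moderated test, called 8287 of the 11050 tested genes at an adjusted p under 0.05, which is 75.0%. Of these 4921 were higher with wild-type vesicles than in control (44.5% of tested genes) and 3366 were lower (30.5%). All 3 values of 1 group lay beyond all 3 of the other for 8638 genes (78.2%). The median log2 fold change of all tested genes was 0.08 and the median size of a change 0.33, against a median standard error of 0.0542. Rescaling the libraries by median-of-ratios factors moved the median of all genes by 0.12 to -0.04 and the split to 3863 higher and 4469 lower, so changes of lists are read against the median of all genes. Counts of every list are read against the shares over all tested genes, 75.0% called, 44.5% higher and 30.5% lower. Changes of at least 2-fold on the log2(RPKM + 1) scale, a bound chosen after the values were seen, were found among called genes for 545 higher genes (4.93%) and 298 lower genes (2.70%). Without wild-type replicate 3, the library that stood apart, 8926 genes were called, 5119 higher and 3807 lower. Abundant genes that were not called and differed by under 0.05 included Tpt1, at 1231, 1195 and 1508 RPKM with wild-type vesicles and 1336, 1274 and 1297 in control, and the peptidyl-prolyl isomerase gene Ppia, at 738 ± 66.3 and 748 ± 9.52 (SD, n = 3 each).

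**Figure D1:**
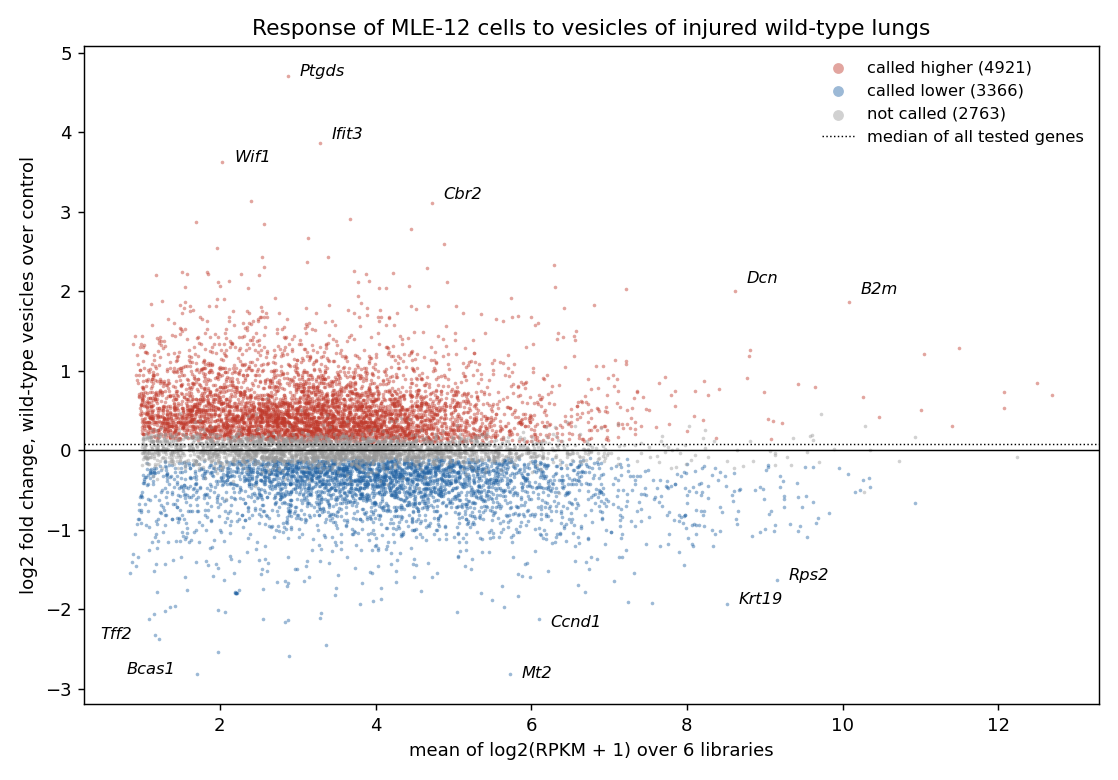
Each point is a tested gene, with its mean of log2(RPKM + 1) over the 6 libraries across and its log2 fold change, wild-type vesicles over control, upwards; red and blue points are genes called higher and lower, and the dotted line is the median of 0.08. Ptgds at 4.71 and Bcas1 and Mt2 at -2.82 mark the ends, and B2m and Dcn stand out among abundant genes.

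The largest increases were in genes of varied function. Ptgds (chr2:25466709-25470046, minus strand, GRCm38), which encodes a prostaglandin D synthase, had 35.5, 33.4 and 41.3 RPKM with wild-type vesicles against 0.568, 0.434 and 0.315 in control, the largest increase by log2 fold change among genes whose groups did not overlap. Cbr2, a carbonyl reductase gene of lung airways, had 76.2, 83.2 and 70.6 RPKM against 6.63, 8.11 and 9.49. Renbp, which encodes renin-binding protein, had 195, 196 and 141 RPKM against 33.7, 33.9 and 34.7, with wild-type replicate 3 the lowest of its group yet far above control. Fgf1, a fibroblast growth factor gene, rose to 18.8 ± 0.433 RPKM with wild-type vesicles, against 2.83 ± 0.276 in control. Prelp, a matrix proteoglycan gene, averaged 55.1 ± 6.37 and 10.5 ± 0.436 RPKM. The adaptor gene Appl2 and the transcription factor gene Ebf4 also rose, with log2 fold changes of 2.59 ± 0.04 and 2.30 ± 0.08 (standard error). Ccdc36 was the least even of the 20 largest increases, at 6.65, 10.7 and 1.69 RPKM with wild-type vesicles against 0.416, 0.165 and 0.387 in control.

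The largest decreases were in genes of varied function, among them Bcas1, Ybx3, Sorbs2 and the surface antigen genes Ly6a and Ly6c1. Bcas1 fell to 0.207, 0.259 and 0.201 RPKM with wild-type vesicles, against 8.11, 7.33 and 7.54 in control. Sorbs2, an adaptor protein gene, was at 1.82 ± 0.101 RPKM with wild-type vesicles and 11.2 ± 0.101 in control. Ybx3, which encodes a cold-shock domain RNA-binding protein, had 23.1, 24.7 and 25.4 RPKM against 99.9, 98.7 and 96.5. Its groups did not overlap, as for 78.2% of all tested genes. Ly6a and Ly6c1, surface antigen genes, averaged 0.653 ± 0.308 and 1.1 ± 0.404 RPKM with wild-type vesicles against 8.5 ± 0.437 and 7.47 ± 0.677 in control, with 19.0% and 32.8% of their stretches of 50 bases found in another annotated gene too, which leaves the assignment of their reads uncertain.

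Measured as a difference in mean RPKM, the largest increases were in mitochondrial transcripts, B2m and Dcn. mt-Cytb, cytochrome b of respiratory complex III, had 4774, 5139 and 3726 RPKM with wild-type vesicles and 1999, 1816 and 1766 in control, a log2 fold change of 1.28 ± 0.13 (limma, adjusted p = 7.51e-05). mt-Nd4l was uneven, at 3761, 4253 and 2100 RPKM against 1440, 1325 and 1413, and mt-Nd1 stood at 3045 ± 402 and 2441 ± 107, a difference whose call was lost on leaving out any single library other than wild-type replicate 3 and after scaling. Reads of mt-Nd4l could be split with a nuclear copy, since 98.8% of its stretches of 50 bases are found in another annotated gene, while mt-Cytb and mt-Nd1 shared none. Of the 12 largest losses in RPKM most were in ribosomal protein genes, and the others were Gapdh, Krt19, Hsp90ab1, Ftl1 and Actg1. Krt19, a simple epithelial keratin gene, had 178, 169 and 212 RPKM with wild-type vesicles against 710, 694 and 731 in control. Gapdh, the glycolytic enzyme, had 521, 514 and 499 RPKM with wild-type vesicles against 1105, 1015 and 1141 in control, and the chaperone gene Hsp90ab1 611, 610 and 544 against 1121, 1106 and 1089. Rps2, a ribosomal protein gene, stood at 288, 280 and 422 RPKM against 981, 1044 and 998, with wild-type replicate 3 the highest of its group, and has 43.0% of its stretches of 50 bases in common with another annotated gene.

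Some genes were near zero in one group and expressed in the other, given here as reads recovered from the RPKM steps. Of the tested genes 11 lay under 0.5 RPKM in every control library and over 2 in every library with wild-type vesicles, and 12 met the reverse. Wif1, a secreted inhibitor of WNT proteins, had 825, 910 and 745 reads with wild-type vesicles and 13, 16 and 7 in control. Mlana, a melanosome protein gene, had 115, 105 and 154 reads against 4, 4 and 3. The ETS factor gene Etv1 had 758, 842 and 754 reads against 74, 70 and 49, and the Hedgehog effector gene Gli2 had 507, 502 and 448 against 57, 50 and 53. The neuropeptide Y receptor gene Npy1r and the potassium channel subunit gene Kcnmb4 had at least 197 reads in each library with wild-type vesicles and at most 54 in each control. In the opposite direction Tff2, a trefoil peptide gene, had 0 reads in the 3 libraries with wild-type vesicles and 67, 81 and 59 in control, which with a limit of 3 reads over the group is at least 59.4-fold lower, and Tff1 had 0, 1 and 0 reads against 52, 66 and 64. Vsig1, an immunoglobulin-domain gene of gastric epithelium, had 0, 3 and 2 reads against 279, 314 and 251. The BMP antagonist gene Nog had 16, 9 and 16 reads against 142, 165 and 110. Gzme, a granzyme gene, had 4, 9 and 3 reads against 105, 119 and 97, and has 20.6% of its stretches of 50 bases in common with Gzmd, Gzmg or Gzmc. The intervals these reads allow cover counting error only.

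The nucleic acid sensors upstream of interferon rose. Of 15 tested sensors and adaptors of 17 listed, 12 rose and 1 fell, with a median log2 fold change of 0.45 against 0.08 over all tested genes. The shares over all tested genes were 44.5% higher and 30.5% lower. Irf7, the factor that amplifies interferon production, had 12.6, 9.39 and 16.4 RPKM with wild-type vesicles and 1.22, 2.13 and 1.27 in control (log2 fold change 2.43 ± 0.20, limma, adjusted p = 2.28e-05). The 3 RIG-I-like receptor genes rose together. Dhx58, which encodes LGP2, had 7.33, 5.77 and 8.23 RPKM against 1.30, 1.13 and 1.06. Ifih1, which encodes MDA5, had 7.63, 7.57 and 8.19 against 2.24, 2.34 and 2.22. Ddx58, which encodes RIG-I, averaged 15 ± 0.822 and 7.41 ± 0.745. The member that fell was Dhx9, an RNA helicase with roles in many steps of RNA processing, at 45.5 ± 2.10 and 55.0 ± 1.02 RPKM.

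Receptor and JAK-STAT genes rose as well. Among 19 tested genes of this list 14 rose and 1 fell, with a median of 0.44. The share called was 78.9%, near the 75.0% of all tested genes, of which 44.5% were higher. Stat2 had 17.9, 15.1 and 15.8 RPKM with wild-type vesicles and 4.26, 4.63 and 3.69 in control, a log2 fold change of 1.73 ± 0.08. Its partner Irf9 had 8.31, 7.36 and 9.29 RPKM against 2.83, 3.16 and 2.38. Stat3 averaged 16.1 ± 0.587 and 10.7 ± 0.0764, and the receptor chain gene Il10rb 9.11 ± 0.437 and 5.10 ± 0.0906. Socs3, a feedback inhibitor of STAT3, was at 5.20 ± 0.203 with wild-type vesicles and 5.80 ± 0.132 in control, a difference of -0.13 on the log2 scale whose call was lost on leaving out control replicate 2 or 3 or wild-type replicate 1.

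Most antiviral effectors rose at least 2-fold. Of 36 tested effectors of 47 listed, 34 rose, 24 of them at least 2-fold, and the median was 1.33. Over all tested genes 44.5% were higher and 4.93% were higher by at least 2-fold. Effectors low in control, such as Ifit3b, passed the bound on the mean only through wild-type vesicles. The count of effectors therefore follows in part from the filter. At a mean of at least 5 RPKM, which tests fewer genes, 21 effectors were called higher. The member called lower was Samhd1, a dNTP hydrolase, at 19.0 ± 0.675 and 21 ± 0.572 RPKM, and that call was lost on leaving out control replicate 1 or 2 or wild-type replicate 1 and in the fit of all 9 libraries. Ifit3 had 37.1, 34.5 and 36.6 RPKM with wild-type vesicles and 1.59, 1.72 and 1.37 in control, and Ifit3b 15.8, 14 and 14.1 against 0.752, 0.879 and 0.739. Of their stretches of 50 bases 51.2% and 45% recur in another annotated gene, so the split of reads between these neighbours is uncertain. Bst2, which encodes tetherin, a protein that holds budding virus at the membrane, had 220, 194 and 220 RPKM against 58.4, 61.0 and 56.2. All 11 tested entries of the guanylate-binding protein and immunity-related GTPase list rose, 10 of them at least 2-fold, with a median of 1.6. The entries cover 10 of the 18 genes listed, since 1 gene symbol has more than 1 entry. Members low in control, such as Gbp4, passed the bound on the mean only through wild-type vesicles. The count of this list therefore follows in part from the filter. At a mean of at least 5 RPKM, which tests fewer genes, 4 members were called higher. Irgm2 had 6.35, 5.75 and 7.63 RPKM with wild-type vesicles and 1.02, 1.19 and 0.872 in control. Irgm1, its relative in the defence of vacuoles, averaged 6.84 ± 0.401 and 2.27 ± 0.223, and Gbp4 3.29 ± 0.221 and 0.811 ± 0.0135.

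Promoters were searched for the core of the interferon-stimulated response element, GAAANNGAA on either strand. The lists here and below gather genes of known function or regulation. A motif share of a list therefore describes the list and is not a result of these data. RefSeq promoters (GRCm38.p6) from 250 bases before the start to 50 after it could be matched by symbol to 8344 of the 11050 tested genes. The core stood in 15 of 32 promoters of the antiviral effectors (46.9%) and in 5 of 5 promoters of the guanylate-binding list, against 2812 of 32851 promoters in the whole table (8.56%) and 6.75% among tested genes that were not called. It stood in 4 of 13 promoters of the sensor list (30.8%) and in 2 of 17 of the receptor and JAK-STAT list (11.8%). In genes called higher by at least 2-fold it stood in 11.1% of 506 promoters, and in those called lower by at least 2-fold in 6.25% of 256. Those of Ifit3, Bst2 and Slfn8, among the effectors with the smallest p that hold it, are printed to show the spacing, each 5′ to 3′ on the strand of the gene, with the core in capitals. Ifit3 (chr19:34583279-34583578, plus strand) holds it 3 times, at 155, 121 and 102 bases before the start. Bst2 (chr8:71537423-71537722, minus strand) holds a pair that overlap. Slfn8 (chr11:83020761-83021060, minus strand), a Schlafen family gene, holds it 47 bases before the start.
Ifit3: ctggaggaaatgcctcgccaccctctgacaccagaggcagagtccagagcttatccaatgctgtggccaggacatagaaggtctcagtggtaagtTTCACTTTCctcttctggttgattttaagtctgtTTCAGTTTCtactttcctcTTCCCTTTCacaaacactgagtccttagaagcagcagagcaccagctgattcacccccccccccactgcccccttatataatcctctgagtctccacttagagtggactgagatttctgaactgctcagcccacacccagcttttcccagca
Bst2: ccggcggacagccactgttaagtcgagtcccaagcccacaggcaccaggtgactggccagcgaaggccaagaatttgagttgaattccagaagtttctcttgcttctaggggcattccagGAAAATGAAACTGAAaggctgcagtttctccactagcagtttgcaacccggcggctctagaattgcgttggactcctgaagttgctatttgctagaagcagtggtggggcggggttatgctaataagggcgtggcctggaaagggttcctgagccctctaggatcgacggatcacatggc
Slfn8: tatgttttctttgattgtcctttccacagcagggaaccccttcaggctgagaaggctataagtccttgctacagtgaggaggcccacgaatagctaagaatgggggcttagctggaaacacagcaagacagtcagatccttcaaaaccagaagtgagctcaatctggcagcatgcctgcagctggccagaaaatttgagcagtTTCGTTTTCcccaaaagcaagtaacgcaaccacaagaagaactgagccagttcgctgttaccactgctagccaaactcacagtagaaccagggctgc

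Antigen presentation genes rose apart from the chaperones of the endoplasmic reticulum. Of 25 tested genes 18 rose, 11 at least 2-fold, and 3 fell, with a median of 0.78. B2m, the light chain of MHC class I, had 2137, 2218 and 1829 RPKM with wild-type vesicles and 562, 573 and 562 in control. Nlrc5, the transactivator of MHC class I genes, had 6.75, 7.14 and 7.69 RPKM against 0.940, 1.02 and 0.878, a log2 fold change of 2.07 ± 0.06 (limma, adjusted p = 2.58e-07). The peptide transporter gene Tap2 averaged 17.0 ± 0.231 and 6.20 ± 0.172. H2-Q4 and H2-Q6 averaged 103 ± 2.98 and 19.7 ± 0.701 RPKM with wild-type vesicles against 26.7 ± 0.733 and 6.71 ± 0.161 in control, with 21.8% and 32.0% of their stretches of 50 bases found elsewhere among annotated genes. The 3 members that fell are Calr and Pdia3, chaperones of the peptide-loading complex that serve many other proteins, and Psme2, a proteasome activator subunit. Calr had 416, 424 and 335 RPKM against 801, 777 and 790.

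Most tested complement and acute phase genes rose and chemokines split. Of 7 tested complement and acute phase genes, of 24 in the table, 5 rose at least 2-fold and none fell, with a median of 1.79, while 2 fell after median-of-ratios scaling and 1 in the fit of all 9 libraries or without wild-type replicate 3. The classical pathway protease gene C1s1 had 9.69, 9.48 and 9.20 RPKM with wild-type vesicles and 1.23, 1.29 and 1.19 in control, C1ra 19.0 ± 0.599 and 4.61 ± 0.198, and the complement regulator gene Cd55 158 ± 9.38 and 45 ± 0.582. Agt, which is not a complement gene, was also among the 5, at 21.2 ± 2.28 RPKM against 2.48 ± 0.304. C1ra and C1s1 have 50.8% and 21.8% of their stretches of 50 bases in common with another annotated gene, chiefly C1rb and C1s2. Among 14 tested chemokine and cytokine genes 7 rose and 6 fell, and the sign of their median turned from 0.09 to -0.02 after scaling. Ccl17 had 5.20, 5.11 and 4.88 RPKM against 1.37, 0.639 and 0.857, and Cx3cl1 8.75, 9.43 and 8.87 against 4, 3.79 and 3.58. Ccl2, the monocyte chemoattractant gene, had 1.12, 0.862 and 0.903 RPKM against 7.27, 6.22 and 7.29, and Lif fell to 4.70 ± 0.0838 against 7.35 ± 0.244. The chemokine gene Cxcl10 fell as well, unlike most genes of the interferon lists above. Its log2 fold change lay between -0.73 and -0.52 over the main fit and the alternatives.

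**Figure D2:**
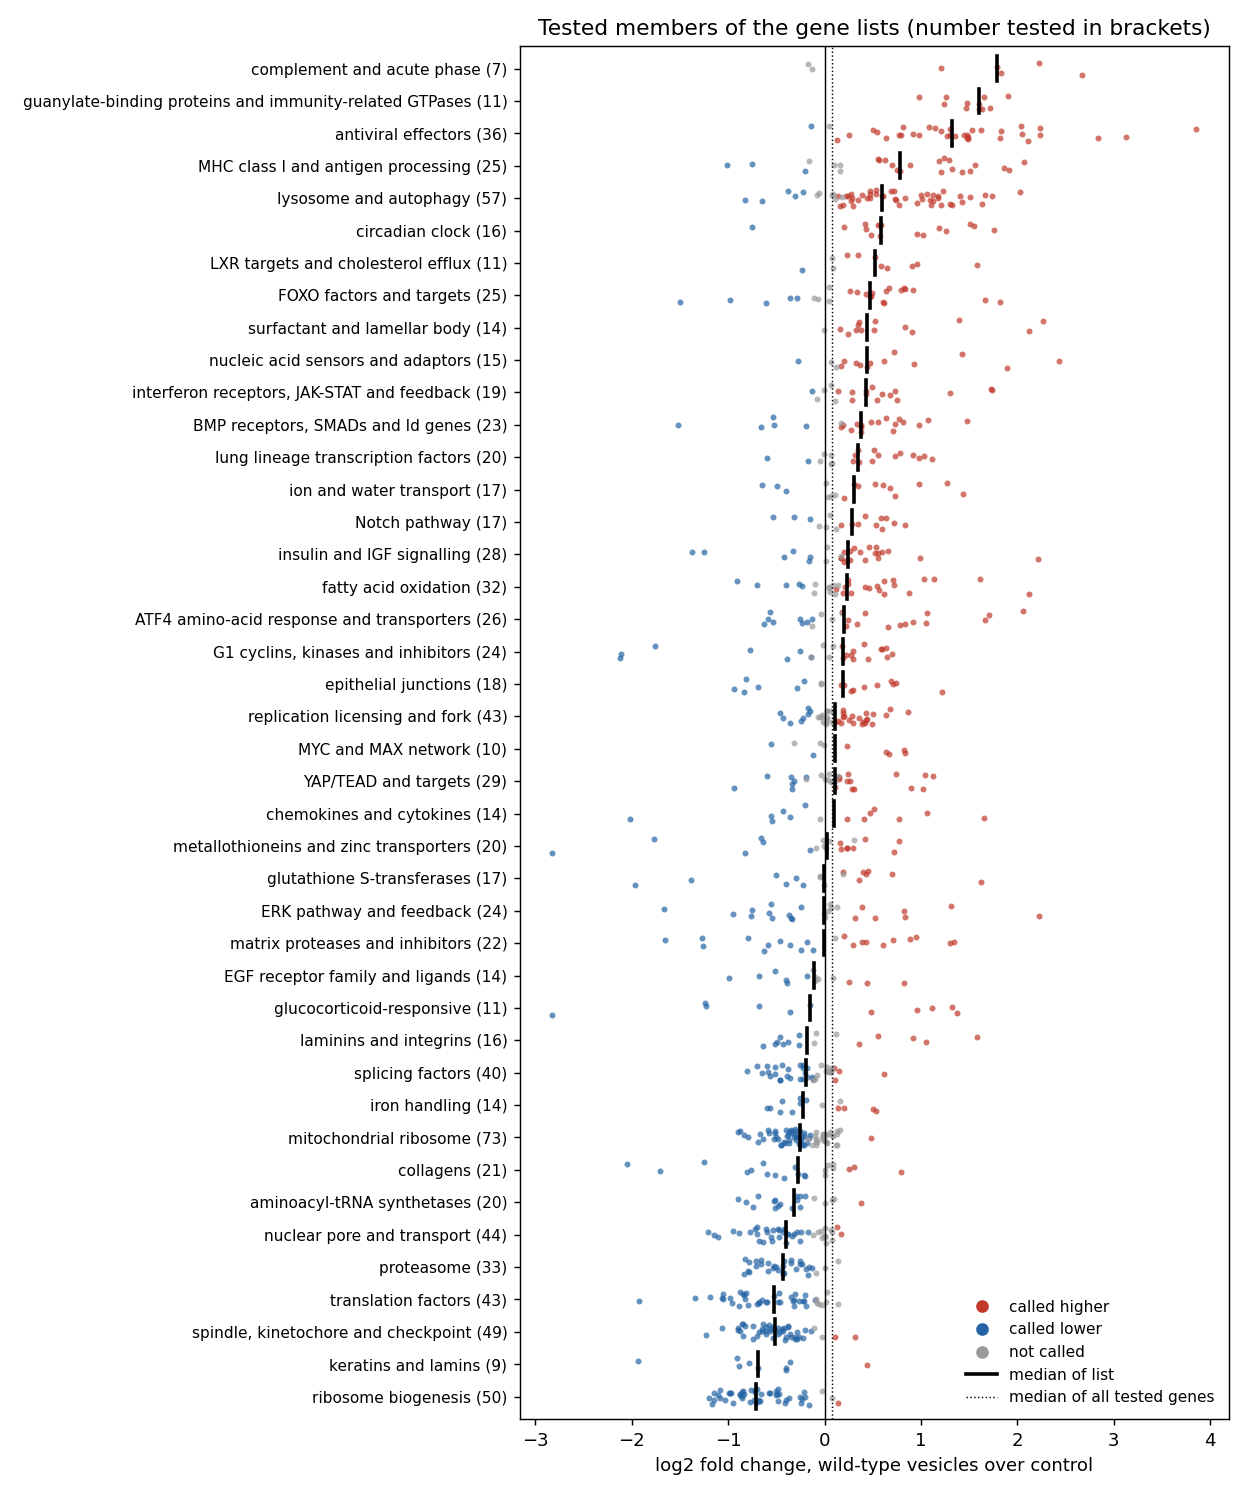
Each row is a gene list with its number of tested members, and each point is a member at its log2 fold change, wild-type vesicles over control; the thick bar is the list's median and the dotted line the median of 0.08 over all tested genes. Complement and acute phase, guanylate-binding protein and antiviral lists lie furthest right and ribosome biogenesis, with a median of -0.71, furthest left.

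Lysosome and autophagy genes rose broadly. Of 57 tested genes of 60 listed 46 rose, 19 of them at least 2-fold, and 5 fell, with a median of 0.60. Grn, which encodes the lysosomal protein progranulin, had 302, 309 and 286 RPKM with wild-type vesicles and 72.8, 72.9 and 72.3 in control, a log2 fold change of 2.03 ± 0.04. Mcoln1, the lysosomal calcium channel, had 62.8, 65.7 and 60.0 RPKM against 18.4, 17.7 and 18.4. The cathepsin A gene Ctsa averaged 86.8 ± 1.96 and 27.4 ± 0.531, and the cathepsin L gene Ctsl 94.9 ± 1.1 and 37.9 ± 0.444. Map1lc3a, an autophagosome protein gene, fell to 10.5 ± 1.12 RPKM with wild-type vesicles, against 19.4 ± 0.692 in control, as did the hydrolase genes Ctsz, at 71.0 ± 1.78 and 92.4 ± 3.06, and Gusb, at 18.8 ± 0.622 and 23.5 ± 1.14.

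The E-box palindrome CACGTG, the core of the sequence read by TFEB and by MYC, was present in 15 of 50 promoters of the lysosome list (30.0%), against 7.15% of all promoters and 9.68% among tested genes that were not called. In the ribosome biogenesis list, which moved the other way, it was present in 9 of 53 (17.0%). The shares among genes that changed by at least 2-fold were 12.6% for those called higher and 12.5% for those called lower. Ctsa (chr2:164833523-164833822, plus strand) holds the palindrome 12 bases before and 5 bases after its start, Mcoln1 (chr8:3500269-3500568, plus strand) 71 and 45 bases before it, and Ctsl (chr13:64370471-64370770, minus strand) 236 bases before it. They are the members with the smallest p that hold it, with the palindrome in capitals.
Ctsa: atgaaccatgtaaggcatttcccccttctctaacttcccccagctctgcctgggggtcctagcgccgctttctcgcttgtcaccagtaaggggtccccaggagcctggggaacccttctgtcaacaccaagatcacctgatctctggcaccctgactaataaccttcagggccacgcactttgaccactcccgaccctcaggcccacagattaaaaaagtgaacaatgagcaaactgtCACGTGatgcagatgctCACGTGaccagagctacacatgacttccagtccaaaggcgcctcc
Mcoln1: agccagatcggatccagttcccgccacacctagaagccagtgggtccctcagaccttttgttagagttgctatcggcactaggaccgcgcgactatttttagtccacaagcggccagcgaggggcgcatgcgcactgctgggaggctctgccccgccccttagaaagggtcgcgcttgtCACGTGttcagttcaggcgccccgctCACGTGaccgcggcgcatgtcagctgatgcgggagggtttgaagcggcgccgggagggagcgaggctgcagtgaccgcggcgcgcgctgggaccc
Ctsl: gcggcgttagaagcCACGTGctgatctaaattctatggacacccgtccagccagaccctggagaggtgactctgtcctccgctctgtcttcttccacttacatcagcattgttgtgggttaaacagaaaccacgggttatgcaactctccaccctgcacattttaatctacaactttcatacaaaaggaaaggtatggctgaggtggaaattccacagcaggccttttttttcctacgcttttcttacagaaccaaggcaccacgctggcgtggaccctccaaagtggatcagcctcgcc

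Cholesterol efflux and fatty acid oxidation genes are read against the 44.5% higher and 30.5% lower among all tested genes. Of 11 tested LXR targets and cholesterol efflux genes 8 rose and 1, the GTPase gene Arl4c, fell, with a median of 0.52. Pltp, the phospholipid transfer protein gene, had 112, 114 and 114 RPKM with wild-type vesicles and 37.6, 37.3 and 36.6 in control, and Srebf1, a regulator of lipid synthesis, 62.5 ± 0.616 and 31.7 ± 0.473. Of 32 tested fatty acid oxidation genes 19 rose and 5 fell, with a median of 0.23, or 13 and 7 after scaling, and 3 fell without control replicate 2, wild-type replicate 1 or wild-type replicate 2. Ppargc1a, the coactivator of mitochondrial genes, had 7.92, 8.09 and 8.13 RPKM with wild-type vesicles and 1.03, 1.04 and 1.15 in control. Cpt1a, the gate of fatty acid entry into mitochondria, averaged 67.1 ± 2.31 and 30.1 ± 0.405. The enzyme gene Echs1 fell to 12.5 ± 0.0774 RPKM against 21 ± 0.466, and Pparg, the nuclear receptor gene, to 10.5 ± 1.37 against 20.4 ± 1.14.

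Genes of cell cycle entry went both ways. Of 24 tested G1 genes 13 rose and 7 fell, and the 3 largest changes were decreases. Among all tested genes 44.5% rose and 30.5% fell. Ccnd1, cyclin D1 (chr7:144929931-144939925, minus strand, GRCm38), had 32.0, 31.1 and 32.5 RPKM with wild-type vesicles and 142, 140 and 145 in control, and Ccnd2 had 3.75, 3.66 and 3.76 against 19.1, 19.5 and 19.4. Cdk6, a kinase partner of the D cyclins, had 1.49, 1.63 and 1.63 RPKM against 7.67, 7.95 and 7.68. Rbl2, a retinoblastoma relative of resting cells, rose to 12.6 ± 0.401 against 8.10 ± 0.0753. The standard error of each of these log2 changes was 0.04, and no values of the groups overlapped, as for 78.2% of all tested genes.

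Replication genes went both ways, and mitotic genes fell. Over all tested genes 44.5% were higher and 30.5% were lower. Of the replication list 69.8% were called, near the 75.0% of all tested genes. Of 43 tested licensing and fork genes 22 rose and 8 fell, but after scaling 14 rose and 12 fell and the median turned from 0.11 to -0.02, and without control replicate 2 there were 5 that fell. Pcna, the sliding clamp of replication, had 400, 391 and 412 RPKM with wild-type vesicles and 220, 218 and 220 in control, and the polymerase epsilon gene Pole 29.0 ± 1.44 and 17.8 ± 0.233. The licensing genes Orc2 and Mcm10 fell, to 13.6 ± 1.29 and 7.86 ± 0.0774 RPKM with wild-type vesicles, against 19.1 ± 0.441 and 9.35 ± 0.0883 in control. Of 49 tested spindle, kinetochore and checkpoint genes 45 fell and 2 rose, with a median of -0.52. Bub1, a checkpoint kinase, had 13.1, 12.3 and 14.7 RPKM with wild-type vesicles and 32.9, 32.7 and 32.3 in control. Bub1b averaged 19.8 ± 0.464 and 36.6 ± 0.886, and Cdc20, the activator of the anaphase-promoting complex, 47.4 ± 3.05 and 100 ± 3.62. The 2 that rose were Cit, citron kinase, by 0.32 on the log2 scale, and the phosphatase gene Cdc25b, by 0.11, which was -0.03 after scaling and lost its call without control replicate 2 or 3 or wild-type replicate 1.

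The core of the cell-cycle genes homology region, TTTGAA on either strand, was found in 28 of 46 promoters of the spindle list (60.9%), against 17.9% of all promoters. Among genes that changed by at least 2-fold its share was 13.0% for those called higher and 17.2% for those called lower, against 11.4% among tested genes that were not called. Bub1b (chr2:118597961-118598260, plus strand) holds it 40 bases after the start and Cdc20 (chr4:118437294-118437593, minus strand) 18 bases before it. They are the members with the smallest p that hold it, with the core in capitals.
Bub1b: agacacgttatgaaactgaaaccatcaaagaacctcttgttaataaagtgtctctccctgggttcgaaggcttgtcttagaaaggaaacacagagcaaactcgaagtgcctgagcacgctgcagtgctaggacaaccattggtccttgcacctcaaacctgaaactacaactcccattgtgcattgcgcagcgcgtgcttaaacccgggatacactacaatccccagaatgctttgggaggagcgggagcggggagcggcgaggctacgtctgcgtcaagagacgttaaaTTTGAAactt
Cdc20: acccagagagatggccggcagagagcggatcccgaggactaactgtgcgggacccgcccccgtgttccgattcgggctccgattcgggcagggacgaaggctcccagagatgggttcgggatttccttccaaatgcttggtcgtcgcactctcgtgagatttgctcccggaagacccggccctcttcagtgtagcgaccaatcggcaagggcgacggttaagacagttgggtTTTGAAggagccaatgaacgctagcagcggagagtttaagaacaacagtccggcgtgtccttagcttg

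**Figure D3:**
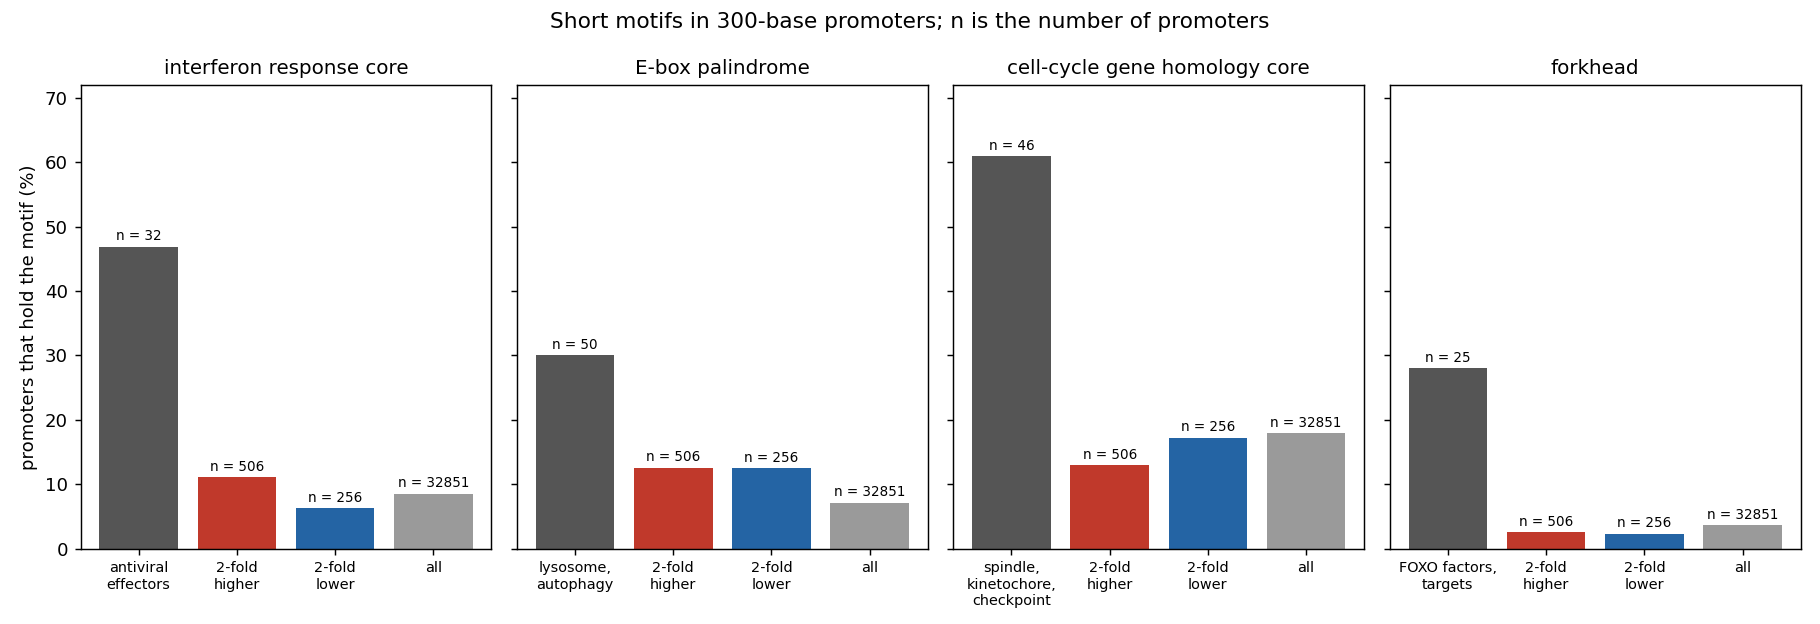
Bars are the percent of promoters that hold each motif, in the list named for it, in genes called higher or lower by at least 2-fold, and in all promoters of the RefSeq table. Each list stands above all promoters (46.9, 30.0, 60.9 and 28% against 8.56, 7.15, 17.9 and 3.65%), while the 2-fold genes stay between 2.34 and 17.2%. The lists gather genes of known function or regulation, so their shares describe the lists and not the response.

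Ribosome biogenesis and translation genes fell. Of 50 tested ribosome biogenesis genes 47 fell, 8 at least 2-fold, and 1, Nop14, was called higher by 0.14, a call lost after scaling and on leaving out any single library other than wild-type replicate 3. The median was -0.71. Nop2, a nucleolar RNA methyltransferase gene, had 21.4, 20.8 and 22.4 RPKM with wild-type vesicles and 48.6, 49.6 and 48.8 in control, and Dkc1, which encodes dyskerin, 13.1, 13.0 and 12.2 against 28.5, 27.4 and 28.3. Of 43 translation factor genes 36 fell and none rose, with a median of -0.52, although 2 rose without wild-type replicate 3. Eef1d averaged 23.8 ± 1.07 and 50.8 ± 1.46 RPKM, and Eif3b, a core subunit of an initiation factor, 68.5 ± 1.33 and 119 ± 1.14. Of 20 tRNA synthetase genes 15 fell and 1, the seryl enzyme gene Sars, rose, to 40.2 ± 0.193 against 30.8 ± 0.412, while 3 rose without wild-type replicate 3. Among 73 mitochondrial ribosome genes 46 fell, with a median of -0.25, and 1, Mrpl47, was called higher, a call lost on leaving out any other single library, while 9 were called higher without wild-type replicate 3.

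RNA export, splicing and protein breakdown genes mostly went the same way. Over all tested genes 75.0% were called and 30.5% were lower. In the nuclear pore and splicing lists 72.7% and 70% were called, near the share of all tested genes. Of 44 nuclear pore and transport genes 30 fell and 2, Nup214 and Nup188, were called higher by 0.17 and 0.13, neither of which was called after scaling, where Nup188 was at -0.01. Nup188 also lost its call without control replicate 1 or 2 or wild-type replicate 2. Kpna2, an importin alpha gene, had 62.6, 60.4 and 61.1 RPKM with wild-type vesicles and 141, 147 and 142 in control, and Rangap1, the GTPase activator of Ran, 50.6, 48.7 and 58.1 against 115, 116 and 120. Of Kpna2 62.6% of the stretches of 50 bases recur in other annotated genes, which makes its level uncertain. Of 40 splicing factor genes 24 fell, with a median of -0.20, and 4 were called higher, or 1 after scaling, 7 without wild-type replicate 3 and 2 without any other single library. The largest of the increases was Srsf5, at 133, 135 and 101 RPKM against 81.1, 78.0 and 78.7. Of 33 proteasome genes 30 fell and none rose, with a median of -0.43, although 1 rose without wild-type replicate 3. Psmd7, a lid subunit, had 88.7, 89.9 and 92.6 RPKM with wild-type vesicles and 157, 154 and 156 in control.

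Members of the MYC network and of the amino-acid response went both ways. Myc itself fell to 13.2, 14 and 11.1 RPKM with wild-type vesicles, against 19.4, 19.2 and 18.7 in control. Its antagonists rose, with Mxd1 at 3.74 ± 0.257 and 1.66 ± 0.126, Mxd4 at 17.4 ± 0.567 and 10.8 ± 0.363, and Mxi1 at 8.82 ± 0.119 and 4.55 ± 0.414. Over the 10 tested genes of the network 5 rose and 2 fell, or 5 and 5 after scaling, where the median turned from 0.11 to -0.01. Besides Myc the member that fell was Mlx, by 0.12, a call lost without any single control library or wild-type replicate 1. Of 26 tested genes of the ATF4 response 14 rose, 5 at least 2-fold, and 8 fell, with a median of 0.20. Ddit3, the stress factor CHOP, had 43.3, 45.2 and 40.3 RPKM with wild-type vesicles and 9.62, 9.43 and 9.47 in control, and Atf5 72.8, 80.2 and 66.9 against 20.7, 21.8 and 22.5. Slc6a9, a glycine transporter gene, rose to 10.2 ± 0.336 against 4.38 ± 0.0725. Mthfd2 and Psat1, enzymes of one-carbon and serine synthesis, and Slc7a5, a leucine transporter gene, fell, with log2 changes of -0.58, -0.56 and -0.54.

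Most FOXO factors and targets rose. Of 25 tested FOXO factors and targets 16 rose and 5 fell, with a median of 0.47, or 14 and 8 after scaling. Over all tested genes 44.5% rose and 30.5% fell. Txnip, an inhibitor of thioredoxin and glucose uptake, had 45.6, 48.2 and 47.6 RPKM with wild-type vesicles and 12.7, 12.7 and 12.4 in control. Klhl24 had 31.8, 29.7 and 31.6 RPKM against 9.03, 9.14 and 9.17, and the death activator gene Bcl2l11 averaged 12.8 ± 0.181 and 6.77 ± 0.179. Foxo6 fell instead, to 3.64, 3.40 and 3.96 RPKM against 12.2, 13.3 and 11.2. The forkhead motif GTAAACA stood in 7 of 25 promoters of this list (28%), against 3.65% of all promoters and 2.32% among tested genes that were not called. Its share was 2.57% in genes called higher by at least 2-fold and 2.34% in those called lower by at least 2-fold. Of 28 tested insulin and IGF genes 19 rose and 6 fell, with a median of 0.25. Pik3ip1, an inhibitor of PI3 kinase, had 11.1, 11.3 and 11.1 RPKM with wild-type vesicles and 1.56, 1.73 and 1.61 in control, the largest rise of that list. The kinase gene Akt1 fell to 58.1 ± 1.77 RPKM with wild-type vesicles, against 78.0 ± 1.01 in control. The IGF-binding protein genes Igfbp5 and Igfbp6 fell, to 2.72 ± 0.282 and 9.13 ± 1.70 RPKM, against 8.62 ± 0.380 and 22.9 ± 1.62.

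**Figure D4:**
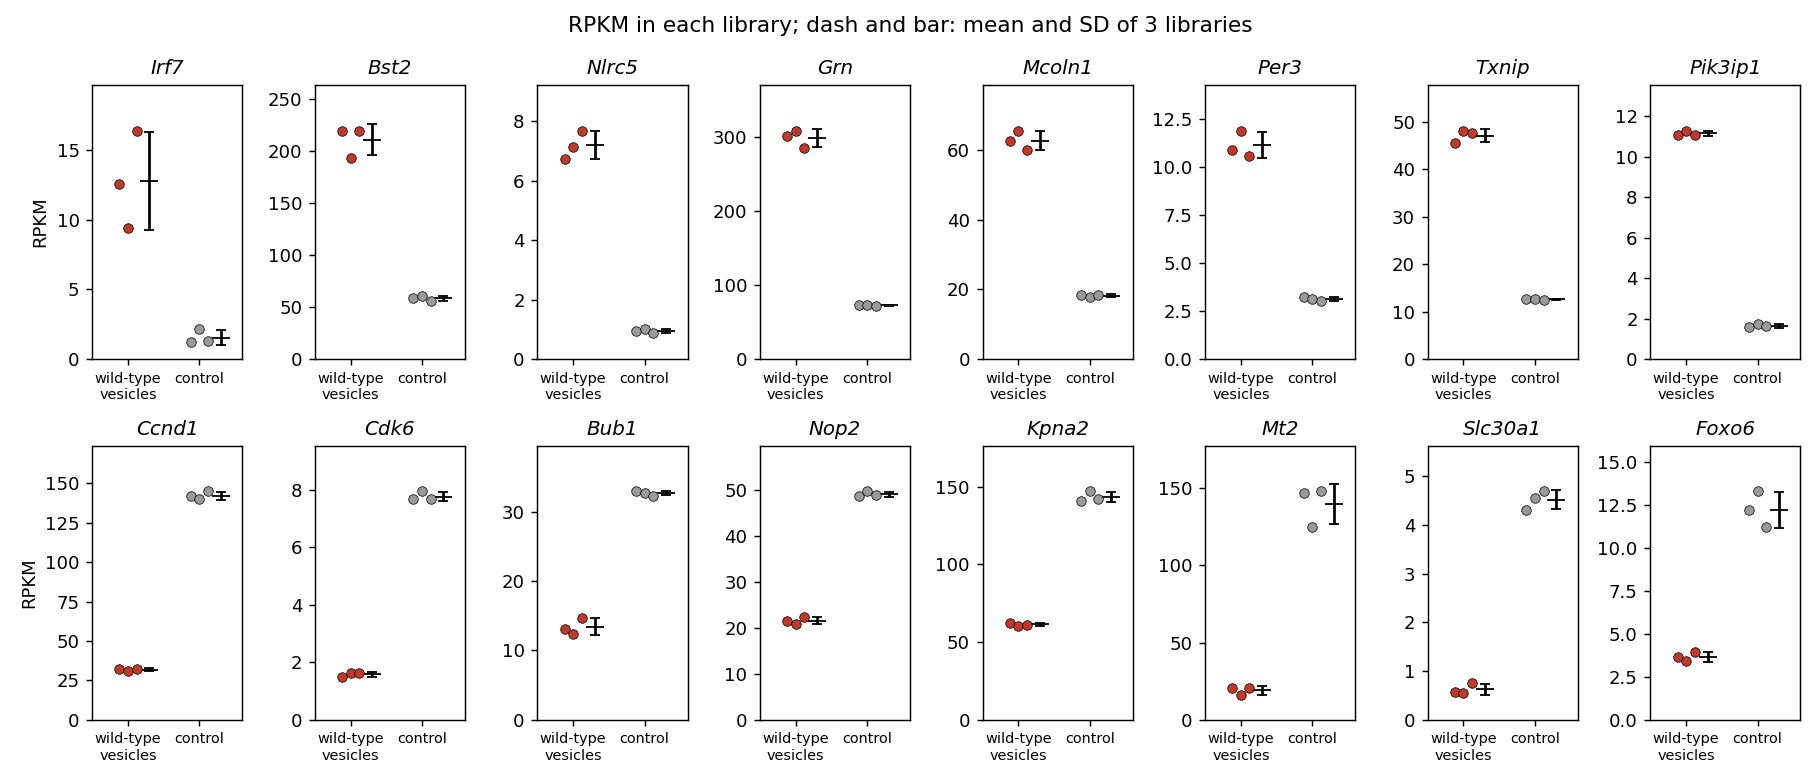
Each panel shows the RPKM of a gene in the 3 libraries with wild-type vesicles (red, left) and the 3 control libraries (grey, right), from 0, with the mean and SD as dash and bar. The upper row holds genes that were higher with wild-type vesicles and the lower row genes that were lower. The groups do not overlap in any panel, as for 78.2% of all tested genes.

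Clock genes rose as a set. All 16 tested genes of 20 listed were called, 15 higher and 1 lower, with a median of 0.58, and 6 rose at least 2-fold. Over all tested genes 75.0% were called and 44.5% were higher. Tef, a PAR-domain output factor, had 28.2, 30.4 and 30.8 RPKM with wild-type vesicles and 7.78, 8.22 and 8.25 in control, and Per3 had 10.9, 11.9 and 10.6 against 3.25, 3.11 and 3.01. The receptor gene Rora, an activator in the clock loop, averaged 5.41 ± 0.278 RPKM with wild-type vesicles and 1.81 ± 0.0537 in control. Nfil3, a repressor that opposes Tef, was the member that fell, to 2.95 ± 0.148 against 5.68 ± 0.285. Glucocorticoid-responsive genes went both ways, with 5 of 11 higher and 6 lower. The receptor gene Nr3c1 had 12.5, 11.9 and 13.6 RPKM against 4.98, 5.68 and 5.26, and the phosphatase gene Dusp1 19.0 ± 1.73 and 6.73 ± 0.213. Fkbp5, a chaperone of the receptor, fell to 10.1, 10.1 and 11.1 RPKM against 25.6, 25.9 and 26.2.

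The metallothionein gene Mt2 and the zinc exporter gene Slc30a1 fell, while the list they belong to did not share a direction. Mt2 had 20.5, 15.8 and 20.8 RPKM with wild-type vesicles and 147, 125 and 148 in control. Slc30a1, the plasma membrane zinc exporter, had 0.564, 0.560 and 0.753 RPKM against 4.30, 4.56 and 4.69. Of the 20 tested genes 8 rose and 6 fell, or 4 and 8 after scaling, where the median turned from 0.03 to -0.09. Of this list 70% were called, near the 75.0% of all tested genes. The importer gene Slc39a13 rose to 16.4 ± 0.272 against 9.21 ± 0.286. The metal response core TGCGCNC stood in 6 of 20 promoters of the list (30.0%), near its share of 28.8% among tested genes that were not called, while all promoters of the table held it in 15.4%. Of 14 iron genes 4 rose and 8 fell, with a median of -0.22, or 2 and 9 after scaling, and 2 rose without control replicate 2 or 3 or wild-type replicate 1. The ferroxidase gene Cp averaged 14.3 ± 0.814 and 22.1 ± 0.955 RPKM, and heme oxygenase, Hmox1, 31.7 ± 0.0702 and 22.1 ± 0.356. Among 17 glutathione S-transferase genes 7 rose and 6 fell, with Gstt1 at 28.1 ± 0.947 and 8.46 ± 0.600 RPKM and Gsto1 at 11 ± 0.496 and 30.2 ± 0.760. The share of this list called was 76.5%, near that of all tested genes.

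Growth factor receptors, their feedback and morphogen pathways gave mixed counts, to be read against 44.5% higher and 30.5% lower among all tested genes. Of 14 tested EGF receptor genes and ligands 3 rose and 6 fell, or 3 and 10 after scaling, with the ligand gene Hbegf at 7.93, 7.47 and 9.38 RPKM with wild-type vesicles against 17.5, 16.6 and 17.9 in control. Of 24 ERK pathway genes 7 rose and 11 fell, and the ETS factors of the pathway went opposite ways, Etv1 as given above and Etv5 to 7.92 ± 0.292 against 16.1 ± 0.314. The feedback inhibitor gene Spry2 rose to 46.6, 44.0 and 48.8 RPKM against 17.4, 18.9 and 17.9. Of 29 YAP and TEAD genes 13 rose and 7 fell, or 9 and 10 after scaling, where the median turned from 0.11 to -0.03. Of this list 69% were called, near the 75.0% of all tested genes. The target gene Ankrd1 had 224, 208 and 224 RPKM against 101, 94.1 and 105, and the receptor kinase gene Axl 92.2 ± 2.18 and 44.3 ± 1.04. Of 23 BMP genes 17 rose and 5 fell, with a median of 0.38. Smad9 had 13.8, 13.7 and 12.5 RPKM against 4.16, 3.90 and 4.41, Bmp5 averaged 79.1 ± 2.94 and 37.0 ± 1.18, and the antagonist gene Fst fell to 4.84 ± 0.601 against 7.45 ± 0.0877. Of 17 Notch genes 10 rose and 3 fell, with 76.5% called, near the share of all tested genes. Notch2 rose, to 22.2 ± 1.31 against 14.3 ± 0.412.

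Most tested genes of the surfactant and lung lineage lists rose, while most tested keratin, lamin and filament genes fell. Of 14 tested surfactant and lamellar body genes of 20 listed 13 rose, 3 at least 2-fold, and none fell, with a median of 0.45. The list also holds Ager, a marker of alveolar type 1 cells and not a surfactant gene. Ager averaged 28.1 ± 3.83 RPKM with wild-type vesicles and 5.05 ± 0.491 in control. The sterol-regulated desaturase gene Scd2 had 616, 616 and 556 RPKM with wild-type vesicles and 322, 324 and 306 in control. Of 20 tested lineage factors 13 rose and 2 fell, with a median of 0.35, and the fall of 1 of them, Foxp4, lost its call without any single control library or wild-type replicate 1. Klf6 averaged 37.4 ± 2.41 and 19.3 ± 0.331 RPKM, Sox9, a factor of lung progenitors, 2.99 ± 0.222 and 1.02 ± 0.164, and the retinoic acid receptor gene Rarb fell to 8.84 ± 0.989 against 13.8 ± 0.747. All 9 tested keratin, lamin and filament genes of 18 listed were called, 8 lower and 1 higher, with a median of -0.69. The member that rose was the keratin gene Krt10, by 0.35 to 0.67 on the log2 scale over the main fit and the alternatives. Over all tested genes 75.0% were called and 30.5% were lower. Nes, which encodes nestin, had 17.6, 16.4 and 17.8 RPKM against 33.1, 33.5 and 31.6, and the nuclear lamina gene Lmnb1 averaged 46.4 ± 2.33 and 75.3 ± 0.831. Of 17 ion and water transport genes 10 rose and 3 fell, with a median of 0.30. The chloride cotransporter gene Slc12a2 had 89.7, 89.0 and 92.0 RPKM against 45.1, 44.7 and 45.5, and the aquaporin genes split, Aqp3 to 3.42 ± 0.287 against 0.630 ± 0.0248 and Aqp1 to 9.17 ± 0.683 against 15 ± 0.674.

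Matrix and adhesion genes went both ways, and collagen genes fell more often than they rose. Of 21 tested collagen genes and modifiers 13 fell, 3 at least 2-fold, and 3 rose, with a median of -0.27. The basement membrane genes Col4a1 and Col4a2 fell to 3.40, 3.98 and 4.13 RPKM and to 4.90 ± 0.114 with wild-type vesicles, against 18.9, 18.9 and 19.4 and 13.1 ± 0.233 in control. Loxl2, a collagen crosslinker gene, had 25.6, 26.4 and 26.6 RPKM against 89.7, 85.9 and 87.8, with 45% of its stretches of 50 bases also in other annotated genes. Col6a1 rose, to 11.3 ± 0.811 against 6.11 ± 0.286. Of 16 laminin and integrin genes 5 rose and 8 fell. Itgb4, the hemidesmosome integrin, had 6.79, 7.30 and 6.54 RPKM against 1.57, 1.61 and 1.71, and Lamb2 averaged 163 ± 5.76 and 78.1 ± 1.55. Of 18 junction genes 10 rose and 6 fell, or 8 and 8 after scaling. The tight junction scaffold gene Tjp3 averaged 3.05 ± 0.200 and 0.742 ± 0.0236 RPKM, and the desmosome genes Ppl and Pkp2 fell, with log2 changes of -0.82 and -0.84. Of 22 matrix protease and inhibitor genes 10 rose and 11 fell, with Reck, a membrane inhibitor of metalloproteinases, at 5.08 ± 0.539 and 1.39 ± 0.130 RPKM and Htra1 at 20.9 ± 0.899 and 51.8 ± 0.898.

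Wild-type vesicles were also set directly against vesicles of syndecan-1 deficient mice. In the fit of all 9 libraries limma called 2044 of the 11050 genes in this difference, 18.5%. Among the 20 largest increases and 20 largest decreases named here, 5 were called in that difference, which are Mgp, Renbp, Ccdc36, Mt2 and Ccnd1. Renbp was higher with wild-type than with deficient vesicles by 0.55 on the log2 scale (limma, adjusted p = 0.027), and Mt2 by 0.67 (limma, adjusted p = 0.0254). Ddit3 and Atf5 of the ATF4 response were higher with wild-type than with deficient vesicles by 0.50 and 0.42, both at an adjusted p of 0.0254, and Myc by 0.36. Bub1 was lower with wild-type than with deficient vesicles, by -0.36 on the log2 scale. For the other 35 genes at the ends of the range no difference between the preparations was called, which does not show that the preparations act alike.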

How the data were processed

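The deposited values are RPKM per gene in 9 libraries, which the authors computed from reads scaled by gene length and library total, and the submitters' processing notes name TopHat2 2.0.7 and the builds GRCm38 and mm10. Strand setting and gene counter are not given in the sources used here. All 9 value columns were used. The control columns carry the name of the line and were assigned as the only group left. Gene positions came from GENCODE annotation matched by identifier for 21748 genes (202 unmatched). Library totals and reads were recovered from the smallest RPKM steps, whole within 0.01 for 12564 of 18207 genes above 0, and served only to give depth and low levels.

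The test was limma 3.58.1 (R 4.3.3) with a variance trend on log2(RPKM + 1), wild-type vesicles minus control, over genes with a mean of at least 1 RPKM, two-sided, Benjamini-Hochberg adjusted over all 11050 genes and called under 0.05. The added 1 understates fold changes of low genes. Tables were made with Python 3.11.15. The script was tested on simulated data. Named genes were the 20 largest changes a direction, the 12 largest RPKM differences a direction, up to 4 members a list with exceptions to its direction, genes near zero in 1 group, and abundant unchanged genes. Members and lists were chosen with earlier results of these data known, and the 2-fold bound after values were seen. Promoters are from RefSeq (GRCm38.p6). Alternatives were other pseudocounts and filters, median-of-ratios scaling, no trend, all 9 libraries, a replicate block and leaving out each library. The listed genes Spry3, Cebpd, C4a, C5 and Flvcr1 were not analysed here.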

Additional observations from a re-analysis of the deposited data

How the results depend on the processing

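The count of called genes was 8287 and lay between 8269 and 8295 with a pseudocount of 0.1 or 0.5, without a variance trend and in the fit of all 9 libraries. It was 9674 of 17585 genes with no filter on low values, 6178 of 8246 with a mean of at least 5 RPKM and 8332 after median-of-ratios scaling, where 7229 of the calls were kept. Leaving out each library gave 7589 to 8926 called genes, 4556 to 5119 higher and 3007 to 3807 lower, the highest without wild-type replicate 3. No gene called in both fits changed sign under any of these alternatives. Of 296 named genes 290 were called and 272 of these kept call and sign under the alternatives each was tested in, with 241 of the 296 tested at a mean of at least 5 RPKM, while 13 lost the call without 1 library. After scaling Cdc25b turned to -0.03, Nup188 to -0.01 and Srsf4 to -0.04, none of them called there. Scaling also moved 13 of 84 list counts by more than 1.5 times, the higher filter, which tests fewer genes, moved 12, and leaving out a library moved 4 to 12, the most without control replicate 2. With the replicate number as a block 8111 genes were called, 4830 higher and 3281 lower, of which 8006 were calls without it, but samples of the same number did not deviate together (correlations 0.184, -0.197 and -0.00385), so the numbers were not taken as pairing. The depth, at least 24353257 reads a library, limits genes near zero, and 3 libraries a group limit small differences.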
